A study of Homo sapiens with 16 samples.

Results

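Parental KMS-11 cells were compared with parental RPMI8226 cells, a pair of human multiple myeloma lines that both express the transcription factor MAF at a high level. The comparison takes all arrays of these lines kept in normoxia, 2 of KMS-11 and 2 of RPMI8226, which is 4 of the 16 arrays and 2 of the 8 groups of the series. Both groups were unselected parental cells at 20% oxygen for 24 h, with no drug or genetic change given in the labels. The other groups are parental U266 and IM-9 cells in the same conditions, and the hypoxia-resistant (HR) derivative of each of the 4 lines, which was kept at 1% oxygen for 24 h. The labels list IM-9 as a myeloma line, and it is widely described as a B lymphoblastoid line. Each line derives from 1 patient, so a difference between the lines is a difference between those 2 lines and cannot be assigned to any 1 of the alterations that they carry.

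Myeloma is a cancer of plasma cells, the antibody-secreting end stage of the B cell. In many myelomas a translocation places an oncogene under an immunoglobulin heavy chain enhancer. The t(14;16) does this for MAF, and t(4;14) for the receptor tyrosine kinase FGFR3 and the histone methyltransferase NSD2, which lie near each other. RPMI8226 is widely described as carrying a MAF translocation, and KMS-11 as carrying both a MAF translocation and t(4;14). MAF is known to activate cyclin D2 (CCND2), integrin beta 7 (ITGB7) and the chemokine receptor CCR1 in such cells.

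Transcript levels are log2 intensities as deposited. The table has a probe set specific to 1 symbol for 18417 genes. A filter level of 6.27, at which the table as a whole has its median, was exceeded in at least 2 of the 16 arrays by 12639 of them, and these were tested. The Pearson correlation over all probe sets was 0.995 between the RPMI8226 arrays, 0.996 between the KMS-11 arrays and 0.938 to 0.940 between arrays of different lines. The array medians were 6.32 and 6.31 in RPMI8226 and 6.22 and 6.22 in KMS-11. All differences below are KMS-11 minus RPMI8226 on the log2 scale, with their standard error (SE) from a limma fit in which the 8 groups share 1 estimate of the spread (n = 2 arrays per line). A gene is called at a Benjamini-Hochberg adjusted p under 0.05, and called 2-fold where the difference is also at least 1 in size. Whether the 2 arrays of a line stand for separate cultures is not said in the labels, so these p-values measure only array-to-array spread, which may be technical.

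Most measured genes differed between the lines. In parental KMS-11, 4503 genes were higher (35.6% of those tested) and 5218 were lower (41.3%), and 2918 did not pass. The 2-fold calls were 1332 genes higher in KMS-11 (10.5%) and 1146 lower (9.07%). The list counts below are to be read beside these shares over all genes. The median difference over all genes tested was -0.07 and the median SE 0.09. At 8-fold or more, 140 genes were higher and 123 lower, and at 16-fold or more 47 were higher and 53 lower. In 549 of the 1332 higher genes and 526 of the 1146 lower genes the dimmer line lay under the filter level, where an array compresses differences, so these folds may be too small.

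MAF itself did not pass the test. Its level was 10.31 and 10.27 in the RPMI8226 arrays and 10.12 and 10.17 in the KMS-11 arrays, a difference of -0.15 ± 0.11 (limma, adjusted p = 0.244). The means in the other parental lines were 6.26 in U266 and 5.93 in IM-9, both under the filter level.

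A list of 12 genes described as MAF targets had 11 tested members. Of these 3 were higher in KMS-11, 7 lower and 1 not past the threshold, with a median difference of -0.71. Over all genes tested, 35.6% were higher and 41.3% lower. The 2-fold calls were 2 higher (18.2%, against 10.5% of all genes) and 4 lower (36.4%, against 9.07%). Where a promoter sequence was given (RefSeq, GRCh38.p14, 250 bases before to 50 after each gene start), the 7 letters TGCTGAC, the core of the MAF recognition element, were searched on both strands. Counted per promoter, the letters occur in 4.19% of all 35116 promoters of that length. Counted per gene, 2 of the 10 targets that have a promoter hold them in at least 1. A gene can have several promoters (RND3 has 2), so the count per gene and the share per promoter are not comparable. For both targets 1 promoter is shown, from its first base to 10 bases after the gene start. SPP1 is the target with such letters and a large difference, and RND3 the one with a small difference. The matched letters, read here as the reverse complement, are in capitals. They begin 6 bases before the start of SPP1 (chr4:87975464-87975723, plus strand) and 204 bases before the start of RND3 (chr2:150487686-150487945, minus strand). A match is a description of the letters and not evidence of a bound site.
SPP1: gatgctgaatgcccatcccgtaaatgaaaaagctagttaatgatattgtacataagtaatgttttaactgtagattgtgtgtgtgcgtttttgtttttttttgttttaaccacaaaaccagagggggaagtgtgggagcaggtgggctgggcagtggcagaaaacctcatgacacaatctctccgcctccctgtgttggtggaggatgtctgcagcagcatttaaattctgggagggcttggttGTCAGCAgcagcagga
RND3: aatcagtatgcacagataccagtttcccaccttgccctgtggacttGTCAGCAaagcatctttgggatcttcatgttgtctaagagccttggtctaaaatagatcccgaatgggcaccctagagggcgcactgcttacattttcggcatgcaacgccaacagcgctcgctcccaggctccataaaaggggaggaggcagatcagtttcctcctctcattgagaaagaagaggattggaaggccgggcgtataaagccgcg

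SPP1 encodes osteopontin, a secreted protein of bone matrix. It was 12.29 and 11.96 in RPMI8226 and 4.93 and 4.73 in KMS-11, a difference of -7.30 ± 0.13 (limma, adjusted p = 8.22e-14). CX3CR1, the receptor of the chemokine fractalkine, showed the largest difference of all genes tested, with 11.47 and 11.45 in RPMI8226 and 3.89 and 3.91 in KMS-11 (-7.56 ± 0.10). For both genes the KMS-11 level was under the filter level, as were the means of U266 and IM-9, which for SPP1 were 4.93 and 4.68 and for CX3CR1 4.10 and 4.22. Among the 4 parental lines, a high level of these 2 targets was therefore seen in RPMI8226 alone, although MAF was high in KMS-11 as well. RND3, a small GTPase with the same letters in its promoter, was lower in KMS-11 by less than 2-fold (-0.71 ± 0.10).

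The other MAF targets differed in both directions. CCR1 was 9.61 and 9.72 in RPMI8226 and 6.75 and 6.76 in KMS-11 (-2.91 ± 0.11), and TLR4, the lipopolysaccharide receptor, differed by -3.84 ± 0.13. RUNX2, the transcription factor of osteoblast differentiation, went the other way, with 6.49 and 6.26 in RPMI8226 and 10.20 and 10.40 in KMS-11 (3.93 ± 0.13). NUAK1, an AMPK-related kinase, was also higher in KMS-11 (1.17 ± 0.19). Below 2-fold, the mTOR inhibitor DEPTOR was higher in KMS-11 (0.74 ± 0.08) and the scaffold protein AHNAK lower (-0.62 ± 0.06). DEPTOR, AHNAK and RND3 were chosen for naming after their values were seen.

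**Figure D1:**
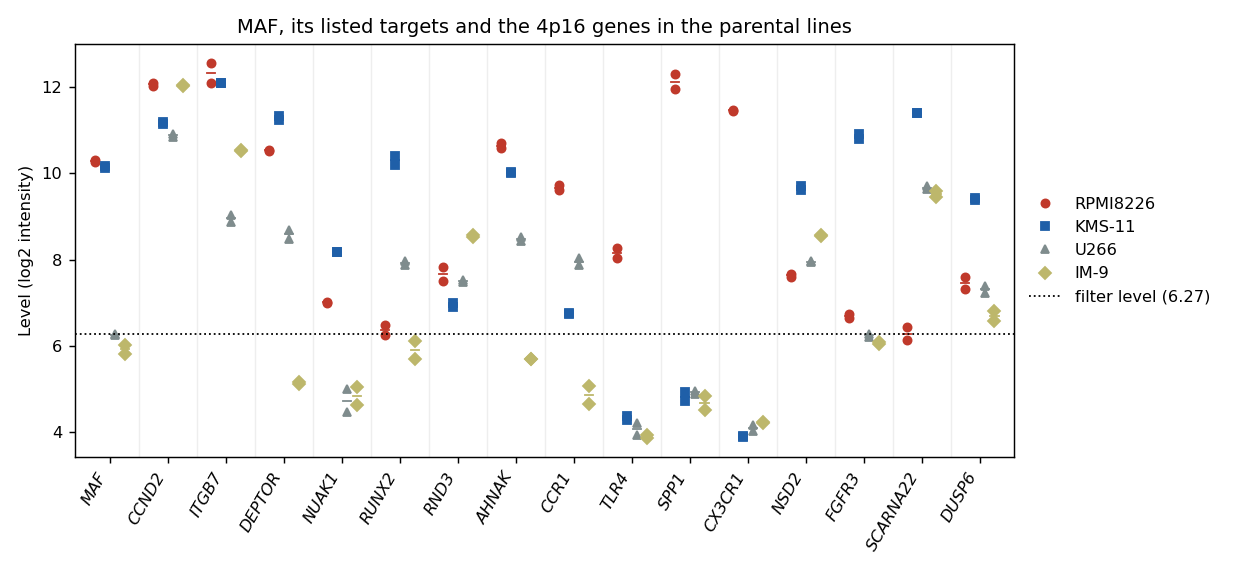
Log2 intensity (vertical axis) of MAF, 11 tested MAF targets and 4 genes of t(4;14) and its signalling in the 8 parental arrays, with 1 point per array and a short line at the mean of each line. The dotted line is the filter level of 6.27. MAF lies near 10 in RPMI8226 and KMS-11 and near the dotted line in U266 and IM-9, SPP1 and CX3CR1 are high in RPMI8226 alone, and FGFR3 and SCARNA22 are highest in KMS-11.

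Of the D-type cyclins, CCND2 was the bright one in both lines. It was 12.02 and 12.10 in RPMI8226 and 11.15 and 11.19 in KMS-11, which is lower in KMS-11 by less than 2-fold (-0.89 ± 0.07). CCND1, the cyclin of t(11;14), was near the filter level in both lines, at 7.05 and 7.07 in RPMI8226 and 6.42 and 6.35 in KMS-11 (-0.68 ± 0.07), against a mean of 10.74 in U266. ITGB7 was 12.56 and 12.10 in RPMI8226 and 12.09 and 12.09 in KMS-11. Its difference of -0.24 ± 0.11 missed the threshold (limma, adjusted p = 0.0635), and without the second RPMI8226 array it was -0.47 and passed (limma, adjusted p = 0.000198).

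Both genes of t(4;14) were higher in KMS-11. FGFR3 was 6.65 and 6.74 in RPMI8226 and 10.90 and 10.79 in KMS-11, a difference of 4.15 ± 0.08, or 17.7-fold (limma, adjusted p = 1.41e-13). In U266 and IM-9 the mean was 6.24 and 6.07, so KMS-11 was the 1 parental line with a level clearly above the filter level. NSD2 was 7.61 and 7.66 in RPMI8226 and 9.70 and 9.61 in KMS-11 (2.02 ± 0.06), against 7.96 in U266 and 8.56 in IM-9. SCARNA22, a small Cajal body RNA whose gene lies within NSD2, was 6.43 and 6.15 in RPMI8226 and 11.40 and 11.39 in KMS-11 (5.11 ± 0.11). In RPMI8226 it was also lower than in U266 (9.67) and IM-9 (9.53), so part of that difference lies in the low RPMI8226 level, which recurs in other small RNA genes further below.

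Genes beside FGFR3 and NSD2 on chromosome 4, chosen after their values were seen, did not share the higher level. TACC3 differed by 0.06 ± 0.06 and did not pass (limma, adjusted p = 0.377). SLBP (-0.97 ± 0.09), TMEM129 (-0.98 ± 0.07), LETM1 (-0.77 ± 0.07) and NELFA (-0.72 ± 0.07) were lower in KMS-11.

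FGFR3 signals through RAS and the MAP kinases, and a set of phosphatases and Sprouty proteins is induced by that pathway and dampens it. Of 9 tested genes of FGF receptors and their adaptors, 4 were higher and 4 lower in KMS-11. FGFR2, a second receptor of the family, was higher (2.15 ± 0.12), and the adaptor GAB1 lower (-1.13 ± 0.06). Of 17 tested MAPK feedback and output genes, 6 were higher, 2 lower and 9 not past the threshold, with a median of 0.00. The 3 that were called 2-fold were all higher in KMS-11. DUSP6, the phosphatase of ERK, was 7.33 and 7.61 in RPMI8226 and 9.42 and 9.39 in KMS-11 (1.94 ± 0.16), and SPRY1 and SPRED1, inhibitors of RAS signalling, differed by 1.25 ± 0.09 and 1.19 ± 0.08. They are 17.6% of the list, against 10.5% of all genes called 2-fold higher, and most of the list did not differ 2-fold.

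Among 11 tested RAS and RAF genes, the 2-fold calls were 2 exchange factors that activate RAS, both higher in KMS-11. RASGRP3 was 3.66 and 3.99 in RPMI8226 and 8.81 and 8.89 in KMS-11 (5.02 ± 0.09), and its mean was 10.69 in U266 and 9.87 in IM-9. RPMI8226 was therefore the parental line that stood apart for this gene. RASGRP1 differed by 1.60 ± 0.08.

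KMS-11 had low levels of many genes that mark blood cells in general. Of 42 tested pan-leukocyte genes, a list put together after values were seen, 26 were lower in KMS-11 and 11 higher. The 2-fold calls were 19 lower and 5 higher, which is 45.2% and 11.9% of the list against 9.07% and 10.5% of all genes tested. The median difference of the list was -0.54. In samples of many cells, fewer cells with a transcript and less of it per cell cannot be told apart.

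The gene for the common leukocyte antigen CD45, PTPRC, was 9.13 and 9.29 in RPMI8226 and 4.06 and 4.09 in KMS-11 (-5.14 ± 0.09, limma, adjusted p = 1.38e-13). U266 and IM-9 had means of 9.54 and 10.83, so KMS-11 was the 1 parental line under the filter level. The tetraspanin gene CD53 followed the same order, with 10.20 and 10.00 in RPMI8226, 4.80 and 5.46 in KMS-11 and means of 10.79 in U266 and 11.41 in IM-9. LCP1, the actin-bundling L-plastin of leukocytes, was 12.20 and 12.22 in RPMI8226 and 7.04 and 6.97 in KMS-11 (-5.20 ± 0.06). PLS3, the T-plastin of most solid tissues, showed the opposite difference, with 4.41 and 4.07 in RPMI8226 and 9.14 and 9.22 in KMS-11 (4.94 ± 0.10).

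Other leukocyte genes were high in RPMI8226 and low in KMS-11, with U266 on the side of KMS-11. CYBB and NCF4, subunits of the phagocyte NADPH oxidase, differed by -5.57 ± 0.09 and -5.18 ± 0.10, and the U266 means were 5.38 and 5.16. EVI2B, a membrane protein encoded within an intron of NF1, differed by -6.60 ± 0.16, and its neighbour EVI2A, named after its value was seen, by -4.77 ± 0.12. NCKAP1L, the blood cell subunit of the WAVE actin complex and also named after its value was seen, was 9.63 and 9.70 in RPMI8226 and 4.72 and 4.81 in KMS-11 (-4.90 ± 0.08).

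Not all leukocyte genes followed. IL2RG, the common gamma chain of several cytokine receptors, was 6.23 and 6.29 in RPMI8226 and 12.03 and 12.07 in KMS-11, a 55.4-fold difference (5.79 ± 0.07). Its means of 11.70 in U266 and 11.94 in IM-9 made RPMI8226 the line apart. CD48, an adhesion ligand of the SLAM family, was also higher in KMS-11 (2.34 ± 0.07), as was the actin regulator GMFG (2.33 ± 0.10).

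**Figure D2:**
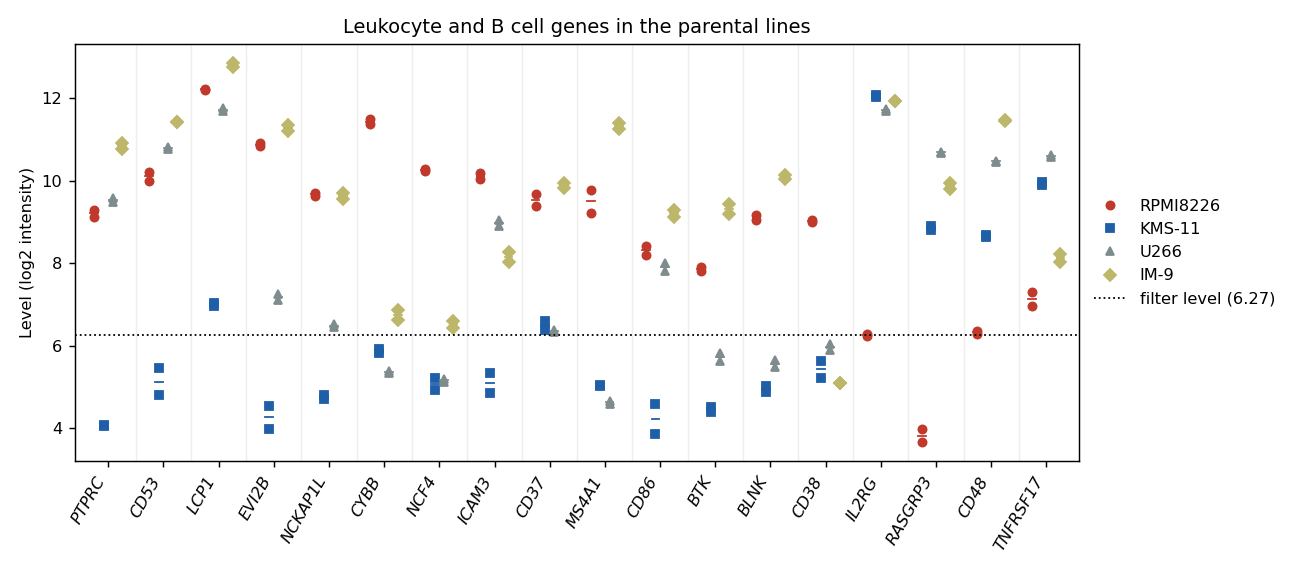
Log2 intensity (vertical axis) of 18 leukocyte, B cell and plasma cell genes in the 8 parental arrays, with 1 point per array and a short line at the mean of each line. The dotted line is the filter level of 6.27. For PTPRC, CD53 and ICAM3 the KMS-11 points alone lie under the dotted line, whereas for RASGRP3 the RPMI8226 points alone do.

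Of 24 tested genes of B cell identity, 13 were lower in KMS-11 and 4 higher, with 10 called 2-fold lower (41.7%, against 9.07% of all genes) and 0 called 2-fold higher by limma. The median was -0.41, and in 9 of the 24 the brighter line was still under the filter level. The largest positive difference in the list was 0.89. MS4A1, which encodes CD20, was 9.78 and 9.21 in RPMI8226 and 5.03 and 5.04 in KMS-11 (-4.46 ± 0.14), with a mean of 4.63 in U266 and 11.33 in IM-9. The costimulatory ligand CD86 differed by -4.09 ± 0.17, the low-affinity IgE receptor FCER2 by -3.85 ± 0.09, and the tetraspanin CD37 by -3.04 ± 0.10. For MS4A1, CD86 and FCER2 both KMS-11 arrays were under the filter level and both RPMI8226 arrays above it, and for CD37 all 4 arrays were above it.

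Signalling genes of the B cell receptor divided between the lines. Of 26 tested genes of this pathway, a list put together after values were seen, 12 were lower and 10 higher in KMS-11. The 2-fold calls were 7 lower (26.9%, against 9.07% of all genes) and 4 higher (15.4%, against 10.5%), and the median was -0.14. The kinases BTK (-3.38 ± 0.11) and SYK (-2.75 ± 0.10) and the adaptors DAPP1 (-5.30 ± 0.10) and BLNK (-4.16 ± 0.09) were lower. BTK was 7.90 and 7.80 in RPMI8226 and 4.4 and 4.52 in KMS-11, against 5.73 in U266 and 9.30 in IM-9. The 4 genes called 2-fold higher were RASGRP3, the transcription factor NFATC2 (1.90 ± 0.18), the NF-kB adaptor MALT1 (1.18 ± 0.07) and the lipid phosphatase INPP5D (1.09 ± 0.06).

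Plasma cell genes showed no common direction. Of 23 tested, 9 were higher, 8 lower and 6 not past the threshold, with 4 and 4 called 2-fold and a median of -0.05. The plasma cell regulators were bright in both lines. PRDM1 was 9.60 and 9.61 in RPMI8226 and 10.82 and 10.89 in KMS-11 (1.25 ± 0.09), IRF4 differed by 0.81 ± 0.06, and XBP1 by 0.03 ± 0.06, which did not pass (limma, adjusted p = 0.622). SDC1, the plasma cell surface proteoglycan CD138, was somewhat lower in KMS-11, at 8.62 and 8.61 against 7.87 and 8.05 (-0.65 ± 0.09).

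Single genes for surface proteins used as drug targets differed by several fold. TNFRSF17, which encodes BCMA, was 6.96 and 7.30 in RPMI8226 and 9.89 and 9.97 in KMS-11 (2.80 ± 0.10), with means of 10.59 in U266 and 8.13 in IM-9. CD38, the ectoenzyme bound by daratumumab, was 9.04 and 8.99 in RPMI8226 and 5.64 and 5.23 in KMS-11 (-3.59 ± 0.12). The U266 and IM-9 means of CD38 were 5.96 and 5.10, so RPMI8226 was the 1 parental line above the filter level. GPRC5D, an orphan receptor of plasma cells, was 6.69 and 6.41 in RPMI8226 and 4.99 and 4.94 in KMS-11 (-1.58 ± 0.13), near or under the filter level in both. In the whole list of 31 tested immunotherapy targets, 9 were higher and 15 lower. The 2-fold calls were 5 higher (16.1%, against 10.5% of all genes) and 6 lower (19.4%, against 9.07%).

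The kappa light chain and several MHC class II genes were higher in KMS-11. IGKC, the kappa light chain, was 9.25 and 9.23 in RPMI8226 and 11.67 and 11.80 in KMS-11 (2.5 ± 0.10). Of 12 tested MHC class II genes, 7 were higher and 2 lower in KMS-11, with 4 called 2-fold higher (33.3%, against 10.5% of all genes). Among these 4 were HLA-DPB1 (1.62 ± 0.08), HLA-DQA1 (1.82 ± 0.14) and the class II activator RFX5 (1.31 ± 0.06). The HLA genes are near-identical copies in part, and probes may be shared between them. In the class I list of 12, 5 were higher and 6 lower, and the 2-fold calls were the immunoproteasome subunits PSMB8 (1.56 ± 0.11) and PSMB9 (1.25 ± 0.06).

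Of 31 tested interferon response genes, 17 were higher and 7 lower in KMS-11. The 2-fold calls were 8 higher (25.8%, against 10.5% of all genes) and 2 lower (6.45%, against 9.07%). SAMD9L, an antiviral restriction factor, was 6.85 and 7.39 in RPMI8226 and 10.14 and 10.20 in KMS-11 (3.05 ± 0.12). The ISG15 ligase HERC5 differed by 2.21 ± 0.08. BST2, which encodes tetherin, went the other way (-1.17 ± 0.09). In 10 of the 31 genes the brighter line was still under the filter level.

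Constitutive NF-kB activity is common in myeloma lines, and TRAF3, a subunit of the complex that degrades the kinase NIK, is part of its brake. TRAF3 was 6.95 and 7.57 in RPMI8226 and 8.48 and 8.68 in KMS-11 (1.32 ± 0.17). Means of 8.93 in U266 and 8.96 in IM-9 placed RPMI8226 below the other 3 lines. CDC42BPB, which lies beside TRAF3 on chromosome 14 and was chosen after its value was seen, was also low in RPMI8226, at 5.21 and 5.16 against 7.76 and 7.75 in KMS-11. Its means in the other lines were 7.71 (U266) and 7.30 (IM-9).

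Of 24 tested NF-kB regulators, 13 were higher in KMS-11 and 5 lower, against 35.6% and 41.3% of all genes. By limma, 6 were called 2-fold higher (25.0%, against 10.5% of all genes) and 0 lower, and the median was 0.25. TNFAIP3, the deubiquitinase A20 that terminates NF-kB signalling, was 6.21 and 6.35 in RPMI8226 and 9.0 and 9.03 in KMS-11 (2.73 ± 0.07). The precursor genes NFKB2 (1.35 ± 0.06) and NFKB1 (1.01 ± 0.08) and the ligase TRAF6 (1.06 ± 0.09) were higher as well. NF-kB target genes did not share that lean. Of 28 tested, 10 were higher and 11 lower, with a median of -0.04. The 2-fold calls were 4 higher (14.3%, against 10.5% of all genes) and 5 lower (17.9%, against 9.07%). The lists overlap, and TNFAIP3 and NFKB2 are among the 2-fold higher calls of both. The chemokine CCL5 (1.53 ± 0.09) and the caspase inhibitor CFLAR (1.53 ± 0.09) were higher in KMS-11. CXCL10 (-3.76 ± 0.16), CCL2 (-2.88 ± 0.19) and ICAM1 (-1.54 ± 0.07) were lower.

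Of 34 tested cytokine receptor and JAK-STAT genes, 15 were higher and 11 lower, with 6 called 2-fold in each direction (17.6% each way, against 10.5% higher and 9.07% lower over all genes). Beside IL2RG, its kinase JAK3 was 5.78 and 5.53 in RPMI8226 and 7.26 and 7.28 in KMS-11 (1.62 ± 0.10), and the receptors IL21R and IL4R, which use the gamma chain, differed by 1.18 ± 0.10 and 1.17 ± 0.08. RPMI8226 had the higher level of CSF2RB, the common beta chain, with 8.76 and 9.06 against 5.39 and 5.28 in KMS-11 (-3.58 ± 0.15), of the phosphatase PTPN6 (-2.46 ± 0.09) and of STAT5A (-1.91 ± 0.12).

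Interleukin 6 is the main growth factor of myeloma cells, and its receptor is made of a binding chain, IL6R, and a signalling chain, IL6ST. IL6R was 9.11 and 9.22 in RPMI8226 and 7.45 and 7.28 in KMS-11 (-1.80 ± 0.09). IL6ST was 10.00 and 10.24 in RPMI8226 and 11.31 and 11.37 in KMS-11 (1.22 ± 0.09). The chains thus differed in opposite directions.

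Of 36 tested bone, Wnt and growth factor genes, 20 were higher in KMS-11 and 8 lower, with 9 called 2-fold higher (25.0%, against 10.5% of all genes) and 2 lower (5.56%, against 9.07%). The median was 0.27. HGF, the hepatocyte growth factor, was 6.57 and 6.65 in RPMI8226 and 9.76 and 9.73 in KMS-11 (3.13 ± 0.14), against 4.35 in U266 and 4.24 in IM-9. MET, its receptor, was under the filter level in both lines, at 4.19 and 4.4 in RPMI8226 and 5.33 and 5.79 in KMS-11, and was chosen for naming after its value was seen. The platelet-derived growth factors went in opposite directions, with PDGFC higher (3.44 ± 0.12) and PDGFA lower in KMS-11 (-2.76 ± 0.11). The R-spondin receptor LGR4 (2.46 ± 0.11), the Wnt receptor FZD6 (2.12 ± 0.09) and the Wnt effector LEF1 (1.41 ± 0.09) were higher. SPP1, described above, is the lowest member of this list.

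Adhesion genes differed in both directions. Of 37 tested adhesion and homing genes, 10 were higher and 20 lower in KMS-11, with a median of -0.32. The 2-fold calls were 6 higher (16.2%, against 10.5% of all genes) and 11 lower (29.7%, against 9.07%). The cadherins CDH2 and CDH1 went in opposite directions. N-cadherin (CDH2) was 5.53 and 5.49 in RPMI8226 and 8.68 and 8.64 in KMS-11 (3.15 ± 0.08), and E-cadherin (CDH1) 7.17 and 7.39 in RPMI8226 and 5.73 and 5.52 in KMS-11 (-1.65 ± 0.12). ITGA4 and ITGB1, the chains of the fibronectin and VCAM1 receptor VLA-4, were both higher in KMS-11. ITGA4 was 6.17 and 6.22 in RPMI8226 and 9.19 and 9.26 in KMS-11 (3.03 ± 0.06), and ITGB1 differed by 1.81 ± 0.07. ITGA4 was also bright in U266 (10.58) and IM-9 (10.04), so the low RPMI8226 level stood apart.

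On the other side, NCAM1, the adhesion molecule CD56 of many myelomas, was 9.83 and 9.82 in RPMI8226 and 6.16 and 6.03 in KMS-11 (-3.73 ± 0.11). The tetraspanin CD81 differed by -2.53 ± 0.07 and ICAM3, a ligand of leukocyte integrins, by -5.00 ± 0.14. Connexin GJA1, which forms gap junctions and is outside this list, was 5.30 and 5.18 in RPMI8226 and 10.58 and 10.47 in KMS-11 (5.28 ± 0.09), with 4.98 in U266 and 5.36 in IM-9. The genes named from the adhesion list were taken from its 2-fold calls in each direction, so their size and mixed direction follow from that choice.

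Markers of other cell types were checked for RNA of cells that these cultures should not hold. In RPMI8226, 3 of 15 T and NK cell markers, 1 of 10 myeloid, 3 of 14 stromal, 4 of 10 endothelial and epithelial and 3 of 5 erythroid markers had a mean above the filter level. In KMS-11 the counts were 2, 1, 3, 2 and 2. The log2 of the summed linear stromal level was 12.89 in both RPMI8226 arrays and 12.07 and 12.08 in KMS-11, and that of the endothelial and epithelial list 11.04 and 11.03 against 9.83 and 9.74. The summed myeloid level was also lower in KMS-11, at 8.64 and 8.6 against 9.58 and 9.46, and the 1 myeloid marker above the filter level, the lysosomal protein gene CD68, differed by -2.23 ± 0.10. The stromal markers above the level were COL1A1, FN1 and VIM in both lines. FN1, fibronectin, was 12.67 and 12.65 in RPMI8226 and 6.66 and 6.68 in KMS-11 (-5.99 ± 0.08), and vimentin (VIM) 8.88 and 9.26 against 11.83 and 11.85 (2.76 ± 0.10). EPCAM (-1.38 ± 0.13) and KRT18 (-1.71 ± 0.11), epithelial markers, were lower in KMS-11. The part of admixed RNA in any result was not tested, and the remaining 11 of 14 stromal markers were under the filter level in both lines.

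Of 36 tested histone and DNA methylation genes, 21 were higher in KMS-11 and 8 lower, with 7 called 2-fold higher (19.4%, against 10.5% of all genes) and 1 lower (2.78%, against 9.07%). The median was 0.33. KDM6A, the X-linked demethylase of histone H3 lysine 27 that is mutated in some myelomas, was 4.55 and 4.02 in RPMI8226 and 8.93 and 9.05 in KMS-11, a difference of 4.70 ± 0.14 (limma, adjusted p = 5.08e-12). Its means of 8.33 in U266 and 8.25 in IM-9 made RPMI8226 the 1 parental line under the filter level. The X-linked genes FUNDC1 and CASK, chosen after their values were seen, were measured well above it in RPMI8226. They were 7.65 and 7.79 for FUNDC1 and 8.39 and 8.23 for CASK, and differed by 0.71 ± 0.07 and 0.48 ± 0.08.

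The DNA methylation genes TET1 (2.20 ± 0.13), TET2 (1.65 ± 0.07) and DNMT3B (1.97 ± 0.12) and the lysine 4 demethylase KDM5B (3.03 ± 0.11) were also higher in KMS-11. The Polycomb gene CBX2 was lower (-1.20 ± 0.10). FAF1, a FAS-associated protein outside these lists and chosen after its value was seen, showed the pattern of KDM6A on chromosome 1. It was 4.56 and 4.52 in RPMI8226 and 9.22 and 9.26 in KMS-11, against 10.25 in U266 and 9.75 in IM-9.

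Genes that restrain growth or trigger death differed in both directions. CDKN1A, the p21 inhibitor of cyclin-dependent kinases, was 7.79 and 8.27 in RPMI8226 and 6.20 and 6.35 in KMS-11 (-1.76 ± 0.13). The death receptor FAS was 8.28 and 8.56 in RPMI8226 and 10.79 and 10.91 in KMS-11 (2.43 ± 0.09). Of 17 tested cell cycle inhibitor and RB pathway genes, 8 were higher and 5 lower. The kinase CDK6 was higher in KMS-11 (1.47 ± 0.07), and the retinoblastoma gene RB1 lower, at 9.23 and 9.29 against 10.85 and 10.93 in RPMI8226 (-1.63 ± 0.10).

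The anti-apoptotic genes MCL1 and BCL2L1 of the BCL2 family differed in opposite directions. BCL2 itself, chosen after its value was seen, differed by -0.01 ± 0.07 and did not pass (limma, adjusted p = 0.883). MCL1 was 9.33 and 9.47 in RPMI8226 and 10.84 and 10.90 in KMS-11 (1.47 ± 0.06). BCL2L1, which encodes BCL-XL, was 10.44 and 10.45 in RPMI8226 and 8.89 and 8.90 in KMS-11 (-1.55 ± 0.07). The pro-apoptotic BCL2L11, which encodes BIM, was lower (-1.32 ± 0.07). Of the 16 tested members, 3 were higher and 8 lower. The 2-fold calls were 1 higher (6.25%, against 10.5% of all genes) and 3 lower (18.8%, against 9.07%).

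Cereblon is the target of lenalidomide and directs the degradation of IKZF1 and IKZF3. Of 15 tested genes of this axis, 8 were higher and 4 lower in KMS-11. By limma, 0 were called 2-fold lower and 3 higher (20.0%, against 10.5% of all genes). These were IKZF2 (1.94 ± 0.07), the kinase CSNK1A1 (1.07 ± 0.08) and IKZF3, which was 9.35 and 9.35 in RPMI8226 and 10.41 and 10.38 in KMS-11 (1.04 ± 0.07). CRBN itself, chosen after its value was seen, was lower by less than 2-fold (-0.40 ± 0.07).

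Of 33 tested proteasome genes, the targets of bortezomib among them, 17 were higher and 7 lower, with 3 and 2 called 2-fold. PSMA5, an alpha ring subunit, was 8.17 and 8.26 in RPMI8226 and 10.52 and 10.56 in KMS-11 (2.33 ± 0.06). PSMB6, a catalytic beta subunit, was 10.36 and 10.44 in RPMI8226 and 8.73 and 8.73 in KMS-11 (-1.67 ± 0.06). In the unfolded protein response list of 30, 8 were higher and 16 lower, with 1 and 3 called 2-fold. The proteasome shares, 9.09% higher and 6.06% lower, lie near those of all genes, and those of the unfolded protein response are 3.33% and 10.0%.

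Detoxification genes differed in both directions too. Of 22 tested, 7 were higher and 11 lower in KMS-11. The 2-fold calls were 4 higher (18.2%, against 10.5% of all genes) and 5 lower (22.7%, against 9.07%). The quinone reductase NQO1 was 9.20 and 9.18 in RPMI8226 and 11 and 10.95 in KMS-11 (1.78 ± 0.07). The glutathione transferases GSTM3 (3.68 ± 0.15) and GSTT1 (-2.90 ± 0.18) differed in opposite directions. The aldo-keto reductases AKR1C1 (-2.33 ± 0.12) and AKR1C2 (-2.73 ± 0.13) were lower in KMS-11, and they are near-identical copies whose probes may be shared.

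Of 25 tested cholesterol and fatty acid synthesis genes, 14 were lower in KMS-11 and 7 higher, with 5 called 2-fold lower (20.0%, against 9.07% of all genes) and 1 higher (4.0%, against 10.5%). The median was -0.49. FADS2, the delta-6 desaturase of polyunsaturated fatty acids, was 11.50 and 11.56 in RPMI8226 and 6.36 and 6.13 in KMS-11 (-5.29 ± 0.09), against 9.77 in U266 and 10.71 in IM-9. Its neighbour in function and on the chromosome, FADS1, differed by -1.61 ± 0.07. The cholesterol enzymes DHCR7 (-1.52 ± 0.08), SQLE (-1.30 ± 0.07) and SC5D (-1.06 ± 0.12) were lower as well.

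Of 28 tested targets of the hypoxia-inducible factors (HIF), 12 were higher and 13 lower at 20% oxygen, with a median of -0.06. By limma, 5 were called 2-fold lower (17.9%, against 9.07% of all genes) and 0 higher. EPAS1, which encodes HIF-2 alpha, was 8.61 and 8.73 in RPMI8226 and 5.83 and 5.59 in KMS-11 (-2.96 ± 0.11). The neuronal enolase ENO2 (-2.23 ± 0.07) and the glucose transporter SLC2A1, which was 9.96 and 10.04 in RPMI8226 and 8.18 and 8.21 in KMS-11 (-1.81 ± 0.12), were lower too. Of 33 tested replication and mitosis genes, 13 were higher and 18 lower, with 3 and 4 called 2-fold.

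Of 23 tested cancer-testis genes, 5 were higher and 7 lower in KMS-11, with 2 called 2-fold higher (8.70%, against 10.5% of all genes) and 3 lower (13.0%, against 9.07%). In 13 of the 23 the brighter line was under the filter level. MAGED1, a broadly expressed member of the MAGE family, was 6.01 and 5.64 in RPMI8226 and 10.34 and 10.34 in KMS-11 (4.52 ± 0.11). MAGEA1 was 8.28 and 8.34 in RPMI8226 and 5.25 and 5.30 in KMS-11 (-3.04 ± 0.09).

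**Figure D3:**
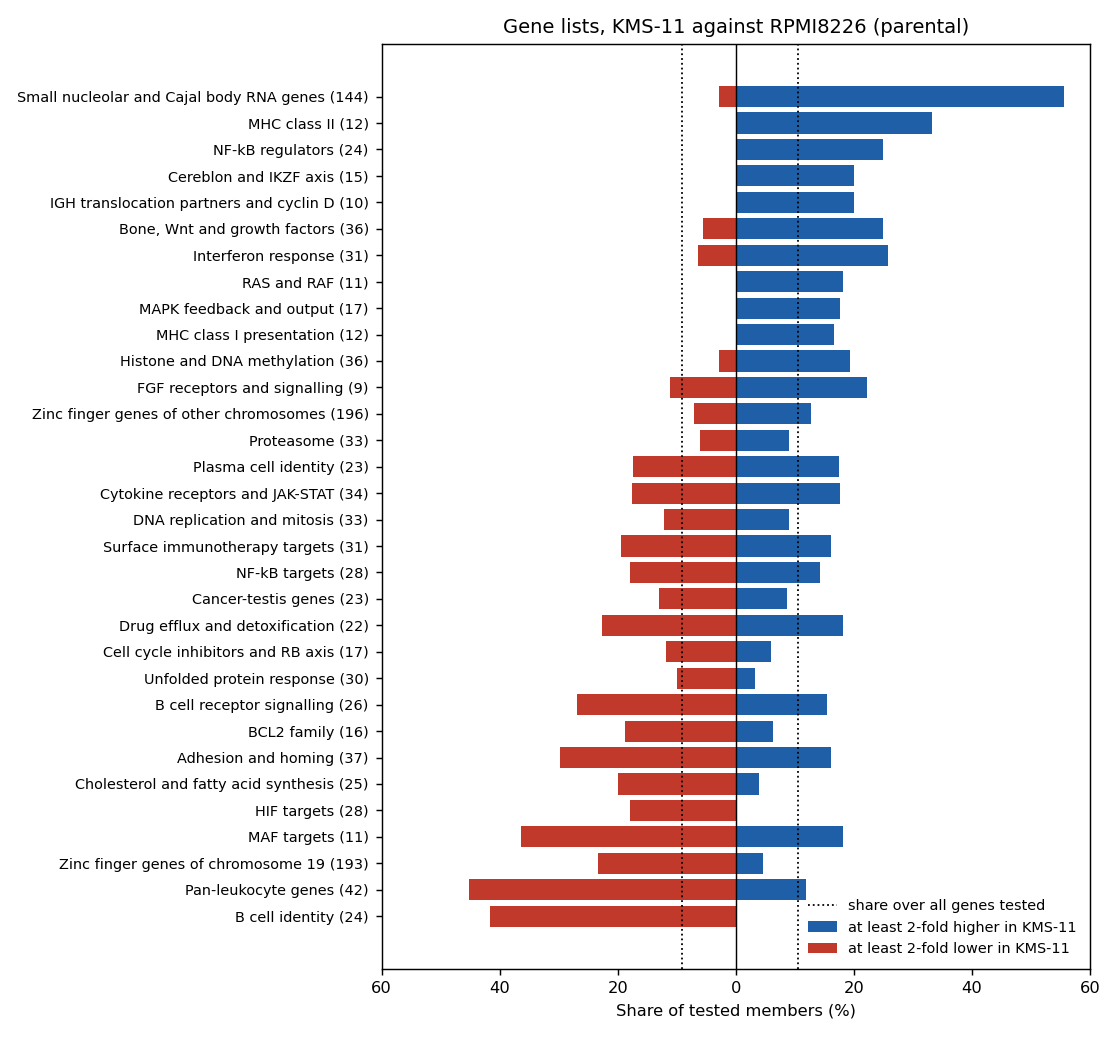
Share of the tested members of each gene list shown (number tested in brackets) called at least 2-fold higher in KMS-11 (bars to the right, %) or lower (bars to the left, %). Dotted lines mark the shares over all genes tested, 10.5% and 9.07%. The small RNA genes reach 55.6% higher, and the pan-leukocyte and B cell identity lists 45.2% and 41.7% lower. The small RNA, pan-leukocyte, B cell receptor signalling and zinc finger sets were added after values were seen, so their shares depend in part on that choice.

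Among the genes with the largest differences several lie outside these lists. Higher in KMS-11 were UCHL1, a deubiquitinase (6.36 and 6.36 in RPMI8226, 12.08 and 12.10 in KMS-11, 5.73 ± 0.07), the electron carrier CYB5A (5.62 ± 0.12), the lysosomal protease cathepsin L (CTSL, 5.09 ± 0.19), AUTS2 (5.05 ± 0.13) and ITM2A (4.94 ± 0.12). UCHL1 was also bright in U266 (12.03) and IM-9 (11.05), whereas AUTS2 was under the filter level in U266 (4.85) and bright in IM-9 (8.79).

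Lower in KMS-11 were PVALB, the calcium-binding parvalbumin (12.26 and 12.40 in RPMI8226, 5.36 and 5.04 in KMS-11, -7.13 ± 0.17), IGSF10 (-6.94 ± 0.12), PLAC8 (-6.86 ± 0.10), the germ cell factor GTSF1 (-6.56 ± 0.20), the leukotriene receptor CYSLTR1 (-6.22 ± 0.12), the endoplasmic reticulum peroxidase GPX7 (-5.74 ± 0.12), IRAG2 (-5.73 ± 0.09), LINC00052 (-5.41 ± 0.15) and NLRP11 (-5.38 ± 0.13). PVALB and IGSF10 were under the filter level in the other 3 lines, with U266 means of 5.22 and 3.85.

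The other parental lines show on which side the unusual level lay. In 499 of the genes called 2-fold higher, KMS-11 was above the filter level and RPMI8226 under it. For 199 of the 499 both U266 and IM-9 were above it too, so that RPMI8226 alone was low, and for 142 both were under it, so that KMS-11 alone was high. In 491 of the genes called 2-fold lower, RPMI8226 was above and KMS-11 under. For 99 of the 491 KMS-11 alone was low, and for 229 RPMI8226 alone was high. The commonest class by this count was a gene above the filter level in RPMI8226 alone.

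The calls were uneven over the chromosomes, for which the RefSeq table of GRCh38.p14 gave the chromosome and gene order. On chromosome 4, 124 of 442 tested genes were called 2-fold higher in KMS-11 (28.1% against 10.5% of all genes) and the median difference was 0.48. Chromosome 18 had 21.0% and chromosome 10 had 19.2%. Chromosome 19 had 3.56% higher and 11.2% lower, with a median of -0.26, and chromosomes 21 and 13 had 14.8% and 14% lower. Zinc finger genes, described further below, made up 45 of the 110 genes called 2-fold lower on chromosome 19. With the small RNA genes left out, chromosome 4 had 122 of 440 genes higher and a median of 0.47. Copy number was not measured, and its part in these shares was not tested.

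**Figure D4:**
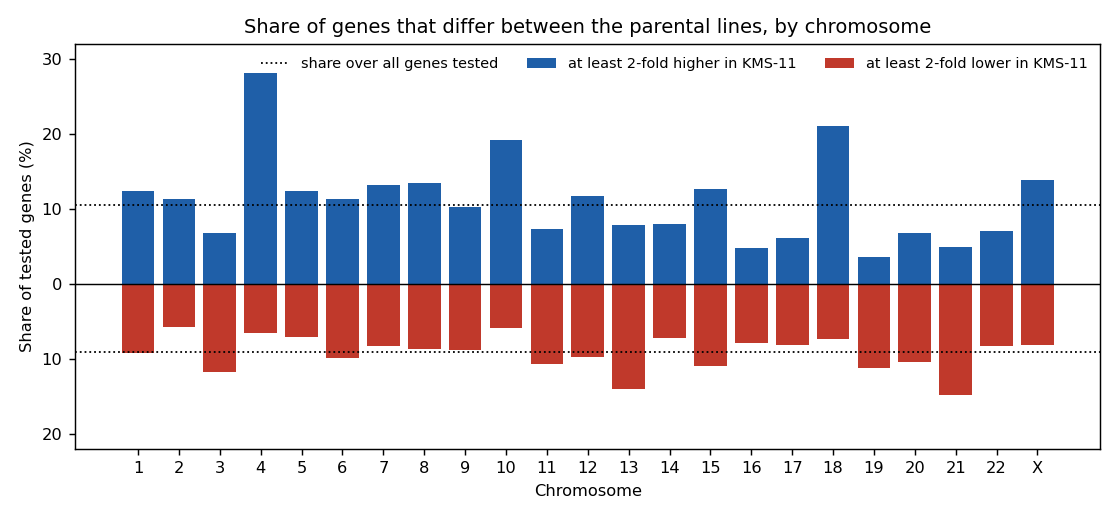
Share of the tested genes of each chromosome (horizontal axis) called at least 2-fold higher in KMS-11 (upward bars, %) or lower (downward bars, %). Dotted lines mark the shares over all genes, 10.5% and 9.07%. Chromosome 4 has the tallest upward bar, at 28.1%, and chromosome 21 the longest downward bar, at 14.8%.

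Runs of neighbouring tested genes, all called 2-fold in 1 direction, were listed where they held at least 5 genes, and 9 were found, of which 2 lay in small RNA clusters. The runs and the genes named in them were chosen from the values and have no test. On chromosome 19, 10 neighbouring genes from ZNF506 to ZNF85 were lower in KMS-11 by 1.05 to 4.41, followed further along by 8 genes from ZNF730 on, lower by 1.07 to 4.04. Beside the pseudogene ZNF826P in the first run and RPSA2 and LOC100420587 in the second, the genes are named as zinc finger (ZNF) genes, a family whose KRAB members include silencers of transposable elements. ZNF91 was 9.08 and 9.01 in RPMI8226 and 5.07 and 4.94 in KMS-11, against 9.45 in U266 and 8.82 in IM-9, and ZNF737 was 8.44 and 8.65 in RPMI8226 and 3.93 and 4.35 in KMS-11, against 8.53 and 8.50. KMS-11 was thus the 1 line with a low level of both.

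Over all 193 tested zinc finger genes of chromosome 19, a set added after values were seen, 95 were lower and 48 higher in KMS-11. Their median was -0.25. Over all 984 tested genes of that chromosome, 52.8% were lower and 23.1% higher, with a median of -0.26, so this lean was not particular to zinc finger genes. Called 2-fold were 45 lower (23.3%, against 11.2% of the chromosome) and 9 higher (4.66%, against 3.56%). In 49 of the 193 the brighter line was under the filter level. Of the 196 on other chromosomes, likewise added, 97 were higher and 56 lower, with a median of 0.22. The 2-fold calls were 25 higher (12.8%, against 10.5% of all genes) and 14 lower (7.14%, against 9.07%), which is near the shares of all genes. Members of this family share sequence, and the part of shared probes was not tested.

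Shorter runs were higher in KMS-11 on chromosome 1 (5 genes, YY1AP1 to RIT1), chromosome 4 (6 genes, NEIL3 to CDKN2AIP), chromosome 7 (6 genes, SGCE to DYNC1I1, which hold the imprinted genes SGCE and PEG10) and chromosome 22 (5 genes, MED15 to LZTR1). PEG10 was 11.01 and 11.07 in RPMI8226 and 12.46 and 12.41 in KMS-11. On chromosome 12 a run of 6 genes from ZNF385A to TESPA1 was lower in KMS-11, and it holds ITGA5, GTSF1 and NCKAP1L.

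Small nucleolar RNAs (SNORD, SNORA) guide the chemical modification of ribosomal RNA, and most are processed from introns of other genes. Of 144 tested small nucleolar and Cajal body RNA genes, a set made after values were seen, 116 were higher in KMS-11 and 16 lower, with 80 called 2-fold higher (55.6%) and 4 lower (2.78%), and a median of 1.11. The difference lay in RPMI8226. The median level of the set was 7.57 and 7.41 in the parental RPMI8226 arrays and 7.81 and 7.66 in the RPMI8226-HR arrays, and between 8.40 and 8.78 in the other 12 arrays. RNA quality and the retention of small RNA at extraction are not given in the labels, and their part in this difference was not tested.

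Within this set the SNORD116 genes held the largest difference. They form a cluster of near-identical copies on chromosome 15 that is expressed from the paternal chromosome, and copies may share probes. All 9 tested members of 20 with a probe set were called 2-fold higher in KMS-11, with a median of 3.48. In 4 of the 9 even KMS-11 was under the filter level, so that they were tested through other groups. SNORD116-14 was 2.73 and 3.27 in RPMI8226 and 9.61 and 9.91 in KMS-11 (6.76 ± 0.15), the largest difference in this direction, and SNORD116-15 was 4.18 and 4.66 against 10.91 and 10.99. U266 and IM-9 had means of 10.93 and 10.13 for SNORD116-14, so RPMI8226 was the 1 parental line under the filter level. PWAR6, a longer RNA gene of the same region that was chosen after its value was seen, was likewise lower in RPMI8226, at 3.01 and 2.69 against 5.67 and 5.69. All of these PWAR6 values lie under the filter level, so this gene too was tested through other groups. Without the SNORD116 genes, 107 of 135 small RNA genes were higher in KMS-11, with a median of 1.07.

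In the imprinted region of chromosome 14, 3 genes chosen after their values were seen had the opposite order. The small RNAs SNORD113-4 (7.26 and 7.41 in RPMI8226, 3.19 and 3.06 in KMS-11) and SNORD114-3 (6.92 and 7.40 against 3.61 and 3.39) and the long RNA MEG3 of the same region (6.90 and 6.65 against 4.68 and 4.90) were higher in RPMI8226. DLK1, a protein gene of that region, differed by -0.03 ± 0.09 and did not pass (limma, adjusted p = 0.756). In U266 and IM-9 the means of SNORD113-4 were 3.09 and 3.11, so RPMI8226 was the line apart.

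The line difference was set beside that of the HR derivatives, which are different arrays of cells that were kept at 1% oxygen. In that comparison 1326 genes were called 2-fold higher in KMS-11-HR than in RPMI8226-HR (10.5%) and 1143 lower (9.04%). Of the 2478 genes called 2-fold in the parental lines, 98.3% passed the adjusted p threshold in the same direction in the HR lines, at any size. In the opposite direction 14 passed, and 29 did not pass. At 2-fold in the HR lines as well, 1064 of the 1332 higher genes and 824 of the 1146 lower genes were called in the same direction. Of the genes at 8-fold or more, 139 of 140 higher and 117 of 123 lower were also called 2-fold in the HR arrays. MAF differed by 0.03, FGFR3 by 4.05, NSD2 by 1.86, PTPRC by -4.71, KDM6A by 4.93, SPP1 by -7.64 and CX3CR1 by -7.16 in the HR lines, in each case near its parental difference.

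**Figure D5:**
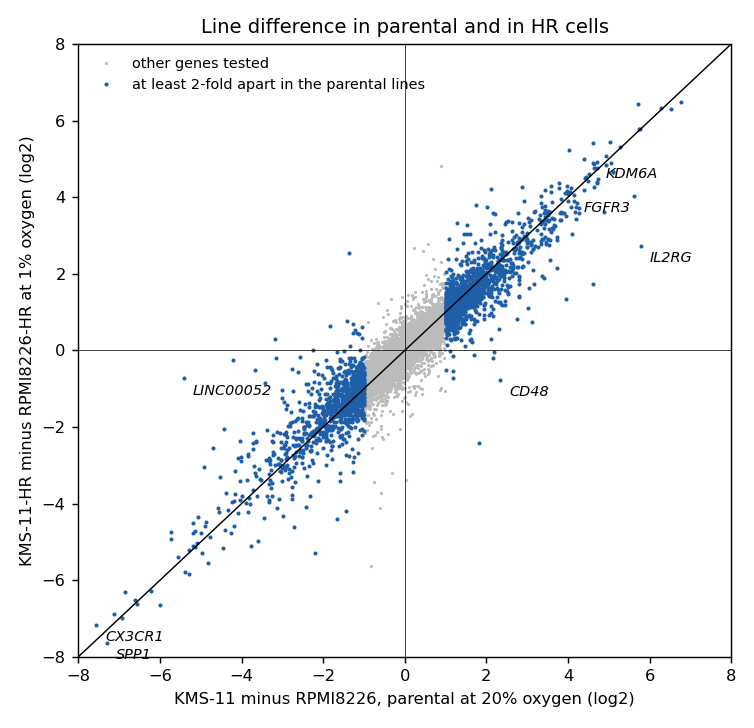
Difference between the lines in HR cells at 1% oxygen (vertical axis, log2) against that in parental cells at 20% oxygen (horizontal axis, log2), 1 point per gene tested, with genes called 2-fold in the parental lines in blue and the line of equal differences drawn. Most points lie along the line of equal differences. LINC00052, IL2RG and CD48, which are labelled, lie off it.

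For a minority the line difference was not the same in both conditions. A test of the difference between the 2 line differences called 291 genes at 2-fold or more (2.30% of those tested), of which 186 were among the 2478. IL2RG was 5.79 higher in parental KMS-11 and 2.72 higher in KMS-11-HR. CD48 was 2.34 higher in parental KMS-11 and -0.77 on the same scale in HR cells, where the order of the lines was thus turned. The lncRNA LINC00052 was -5.41 in the parental and -0.73 in the HR comparison, and SNORD113-4 -4.21 and -0.24. The HR arrays differ from the parental arrays in both selection and oxygen level, which cannot be told apart here.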

How the data were processed

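RNA of 4 lines, each parental and HR, was measured on Affymetrix expression arrays, 2 per group. The authors deposited 1 table of log2 intensities of 33297 probe sets. Per the submitters' processing notes, the software was Affymetrix Expression Console 1.3.0. How background was corrected and arrays normalized is not given in the sources used here. The series' text names another version of the Human Gene ST array than the annotation used for gene names, whose probe set identifiers were all found in the table. No detection calls came with the values, and with arrays their number limits the precision.

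Of the probe sets, 19460 carried 1 gene symbol, 1754 several and 12083 none in the platform's annotation. For 18417 genes the brightest probe set on average was kept, and 18389 of them matched the RefSeq table (GRCh38.p14) by Entrez identifier. Genes above 6.27 in at least 2 of 16 arrays were tested with the limma package 3.58.1 under R 4.3.3 (functions lmFit and eBayes, 16 arrays as 8 groups, 8 residual degrees of freedom, 2-sided), with Benjamini-Hochberg adjustment over all 12639 genes. The steps were tested on simulated data.

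The comparison, its gene lists and its tests were chosen with earlier results of these data known. The genes named are the 15 largest differences in each direction among called genes whose arrays did not overlap and whose brighter line was above the filter level, 15 genes that define myeloma subtypes and plasma cells, and up to 6 called 2-fold members per list and direction. Others are said to be chosen after their values were seen. The sex-linked genes used to type cells were not named. The alternatives tried were another filter, normalization, choice of probe set, model of the spread or set of arrays, a replicate block, a test against 2-fold, and leaving out each array. The replicate numbers do not pair the samples: the differences between replicates of RPMI8226 and KMS-11 correlated at r = 0.07 over genes. Some genes and 1 gene list are not reported here.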

Additional observations from a re-analysis of the deposited data

Results flagged for a closer look

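For 27 of the 198 named genes, the difference between the lines was not the same in HR cells at 1% oxygen as in parental cells at 20% oxygen, by at least 2-fold and with an adjusted p under 0.05 in the limma test of that difference. The values below are the HR difference minus the parental difference, both KMS-11 minus RPMI8226 on the log2 scale. No explanation was tested for any of them.

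In 2 genes the order of the lines was turned. CD48 moved by -3.10, from 2.34 to -0.77 (limma, adjusted p = 8.03e-10). IL21R moved by -1.71, from 1.18 to -0.53.

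Genes higher in parental KMS-11 whose gap was smaller in HR cells were IL2RG, which moved by -3.07 from 5.79 to 2.72, VIM by -1.96, the integrin ITGA4 by -1.93, CYB5A by -1.60, SAMD9L by -1.41, LGR4 by -1.17, FZD6 by -1.14 and GMFG by -1.07. Genes lower in parental KMS-11 whose gap was smaller were LINC00052, which moved by 4.68 from -5.41 to -0.73 (limma, adjusted p = 1.35e-08), EPAS1, which moved by 1.61 from -2.96 to -1.36, NCAM1 by 1.57, STAT5A by 1.48, CCL2 by 1.46, ENO2 by 1.41, AKR1C3 by 1.39, GSTT1 by 1.38 and FCER2 by 1.08.

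In 8 genes lower in parental KMS-11 the gap was larger in HR cells. GPRC5D moved by -1.82, from -1.58 to -3.40, and CD38 by -1.39, from -3.59 to -4.98, so that both surface targets were further apart. The remaining 6 were CAV1 at -1.41, CXCL10 at -1.35, TKTL1 at -1.31, the adenylate kinase AK4 at -1.29, and the sterol enzymes SQLE at -1.28 and SC5D at -1.15.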

How the results depend on the processing

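A stricter filter (above the 75th percentile) kept 7325 genes, with 3267 higher and 2739 lower in KMS-11 against 4503 and 5218 in the main setting, and 755 called 2-fold lower; it drops dim genes, and the median difference was then 0.07. A limma test against 2-fold itself (treat) called 883 genes higher and 738 lower. With a replicate block the counts were 4512 higher and 5235 lower, and of the named genes ITGB7 alone changed its call, to an adjusted p of 0.042 by limma. Leaving out each of the 4 compared arrays in turn gave 4127 to 4297 genes higher and 4629 to 4889 lower. XBP1, which did not pass in any setting, was between -0.01 and 0.08 on leaving out 1 array, and turned sign without RPMI8226 parental replicate 2. ITGB7 passed in 5 settings, and without that same array was -0.47. Of 2941 values of named genes under the alternatives, 2891 kept direction and side of the threshold, 44 of the rest being lost to treat alone; of 1008 list counts 988, and of 92 chromosome shares 89, stayed within 1.5 times.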
